A study of Mus musculus with 6 samples.

Results

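Nfkbia, Nfkbiz, Tnfaip3, Zfp36, Zfp36l1, Zfp36l2 and Dusp1 are feedback genes of inflammatory signalling, and their messages were followed here by cell class and by condition in immune cells of mouse melanomas. The 7 genes were chosen by symbol among the 32285 genes of the expression matrices, and all 7 were found in both pools. The tumours grew from YUMM1.7 cells, a mouse melanoma line, injected under the skin of female C57BL/6J mice (C57BL/6JRccHsd in another label) aged 8 weeks, and were taken on day 28. Single-cell messenger RNA, surface antibody tags and hashtags were counted together (CITE-seq) after sorting for CD45, with 25000 cells loaded for each of 2 pools. There were 4 conditions with 4 mice each. LysM-Cre anti-PD-1 and LysM-Cre isotype mice had the genotype GRf/f-LysMCre, in which a Cre recombinase under the Lyz2 promoter meets floxed alleles of Nr3c1, the gene of the glucocorticoid receptor. Floxed anti-PD-1 and floxed isotype mice (GRf/f) are taken here to have the same floxed alleles without the Cre. The submitters' hashtag labels call them wildtype and the LysM-Cre mice KO. On this reading, no group had unmodified Nr3c1. The antibodies, anti-PD-1 or an isotype control, were given at 12.5 mg/kg. Each pool combined 8 hashtagged samples, 2 of every condition, and each sample is taken here as 1 mouse.

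NF-kappaB is a transcription factor held in the cytoplasm by IkB proteins, and inflammatory signals free it by having IkB destroyed. Among the genes that NF-kappaB then switches on are its own brakes. Nfkbia encodes IkB-alpha, which returns the factor to the cytoplasm, and Tnfaip3 encodes A20, a ubiquitin-editing enzyme that acts upstream on the receptor complexes. Nfkbiz encodes IkB-zeta, a nuclear IkB protein that is needed for a set of secondary response genes such as Il6 in macrophages. Zfp36, Zfp36l1 and Zfp36l2 encode tristetraprolin and its relatives, zinc finger proteins that bind AU-rich elements in messages of cytokines such as Tnf and direct them to decay. Dusp1 encodes a phosphatase that switches off the p38 and JNK kinases, and it is a classical target of the glucocorticoid receptor.

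Promoters of 4 of the genes are shown because short elements through which such signals act can be looked for in them, with Zfp36 as one in which none was found. The windows are the 250 bases before the annotated start, from RefSeq on GRCm38.p6, written 5′ to 3′ on the gene's strand, and capitals mark matches to the kappaB consensus, the cyclic AMP response element TGACGTCA or the AP-1 element TGANTCA. 5 of the 7 genes had a window in the table. Tnfaip3 had 2 windows, and only the one with the higher start coordinate was searched for its elements and is shown.
Nfkbia, chr12:55492648-55492897, minus strand: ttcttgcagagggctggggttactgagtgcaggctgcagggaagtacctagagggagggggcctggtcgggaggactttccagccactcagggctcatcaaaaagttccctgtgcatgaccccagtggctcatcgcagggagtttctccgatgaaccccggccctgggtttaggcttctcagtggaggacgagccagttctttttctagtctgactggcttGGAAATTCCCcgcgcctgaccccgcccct
Tnfaip3, chr10:19015411-19015660, minus strand: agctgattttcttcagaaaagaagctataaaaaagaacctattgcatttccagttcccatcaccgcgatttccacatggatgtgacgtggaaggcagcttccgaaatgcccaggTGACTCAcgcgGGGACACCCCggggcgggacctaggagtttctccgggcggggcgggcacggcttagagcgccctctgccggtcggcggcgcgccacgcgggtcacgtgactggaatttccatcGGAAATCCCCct
Dusp1, chr17:26508473-26508722, minus strand: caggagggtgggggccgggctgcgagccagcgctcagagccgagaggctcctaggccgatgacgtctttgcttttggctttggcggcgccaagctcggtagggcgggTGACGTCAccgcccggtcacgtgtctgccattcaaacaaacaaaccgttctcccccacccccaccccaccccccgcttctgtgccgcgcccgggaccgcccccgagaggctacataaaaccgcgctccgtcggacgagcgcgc
Zfp36, chr7:28379229-28379478, minus strand: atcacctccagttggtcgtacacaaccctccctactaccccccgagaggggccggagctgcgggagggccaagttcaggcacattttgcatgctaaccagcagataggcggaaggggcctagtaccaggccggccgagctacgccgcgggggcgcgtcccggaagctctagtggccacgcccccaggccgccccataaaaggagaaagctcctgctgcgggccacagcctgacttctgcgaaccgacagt
Nfkbia had 1 kappaB match, GGAAATTCCC, 29 to 20 bases before the start. Tnfaip3 had 2, GGGACACCCC at 125 to 116 bases and GGAAATCCCC at 12 to 3 bases before the start, with an AP-1 match, TGACTCA, at 136 to 130 bases. Dusp1 had TGACGTCA at 143 to 136 bases, and the Zfp36 window held none of the elements searched. In Zfp36l1, on chr12:80113014-80113263 of the minus strand, the only match was an AP-1 element, TGATTCA, at 129 to 123 bases. Both strands were searched, and the AP-1 search leaves the middle base free. Among 32851 windows of this length, the kappaB consensus was found in 7.25%, the AP-1 element in 6.75% and TGACGTCA in 1.55%. The glucocorticoid receptor half-site AGAACA, found in 16.1% of them, was in none of the 5 windows. A match is only a run of letters and says nothing about binding in these cells.

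Pool E6 held 16614 barcodes with 221763950 gene UMIs (unique molecular identifiers, 1 per captured message) and pool E5 held 15301 with 176338827. After filters on depth and mitochondrial share and assignment to 1 hashtag, 17239 cells remained, 134 to 3098 per mouse. Clusters were named from marker genes, 5 clusters with 7.93% of the cells stayed unnamed, and a name with the ending -like rests on those markers alone. Monocyte-like cells were the most numerous with 5553 cells, followed by 2246 macrophage-like, 1871 CD8 T-like, 1729 neutrophil-like, 1207 NK-like, 964 fibroblast-like and 700 regulatory T-like cells, then by 505 of the CD4 T-like, 481 of the cDC2-like and 211 of the mast or basophil-like class. The message of Ptprc, which encodes CD45, was seen in 95.5% to 99.3% of the cells of each monocyte-like cluster. It was seen in 29.0% and 37.8% of the cells of the 2 fibroblast-like clusters, which goes against the sort. The cluster at 29.0% had only 1 fibroblast marker among its leading genes. Whether it holds cells of the injected melanoma line was not tested. Free RNA was present, since Lyz2, a myeloid gene, had a UMI in 68.5% of CD8 T-like cells at a median of 5872 UMIs, against 98.6% of monocyte-like cells at 10568. The targeted gene Nr3c1 in monocyte-like cells averaged 32.8 ± 6.47 CPM (UMIs of the gene per 1000000 UMIs of the class, SD, n = 4) in LysM-Cre anti-PD-1 mice, 60.9 ± 7.51 in floxed anti-PD-1 mice, 46.7 ± 12.2 in LysM-Cre isotype mice and 64.8 ± 5.27 in floxed isotype mice. Averaged over antibodies, the log2 change of LysM-Cre against floxed was -0.71, with an adjusted p of 0.0685 in edgeR's quasi-likelihood test. The labels do not name the floxed exon, and a 3′ tag can still count a message that lacks it, so these values do not check the deletion.

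Among the 10 named classes compared, neutrophil-like cells had the highest levels of Dusp1, Zfp36, Nfkbia and Nfkbiz. Levels are CPM per mouse for each class in which a mouse had 20 cells or more, averaged over 3 to 16 mice in 10 classes, and since the classes were made from the same cells their order is a description with no test. Dusp1 ran from 2935 to 5448 CPM over 14 mice in neutrophil-like cells with a median of 4236, whereas in monocyte-like cells, second in order, it ran from 529 to 1958 with a median of 979 over 16 mice. The 2 ranges did not overlap, and Dusp1 was higher in neutrophil-like than in monocyte-like cells in 14 of 14 mice. At the other end, NK-like cells averaged 147 ± 101 CPM (SD, n = 14), which makes a 28.7-fold range of means for Dusp1. Zfp36 had the same 2 classes on top, at 4061.5 ± 1014 CPM (n = 14) in neutrophil-like and 960.3 ± 252 CPM (n = 16) in monocyte-like cells, and was lowest in CD8 T-like cells at 132 ± 61.6 CPM (n = 15). For both genes the step from neutrophil-like to monocyte-like cells was larger than either standard deviation. Below it, the neighbours in the order lay within the larger of their standard deviations, except that Zfp36 in fibroblast-like cells at 315 ± 156 CPM lay beyond the spread of NK-like cells at 139 ± 78.4 CPM. These levels are shares of the RNA in a class, and neutrophil-like cells had the lowest median depth of the 10, 2890 UMIs per cell. The unnamed clusters were left out of this order. One of them, led by Retnlg, Cd24a, Ccr3, Alox15 and Retnla, had a median of 645 UMIs per cell. It stood higher in the 1 mouse with enough of its cells, at 18034 CPM of Dusp1 and 7908 CPM of Zfp36. Retnlg was the only neutrophil marker among its leading genes, and the cluster was not named neutrophil-like.

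Nfkbia averaged 2560.4 ± 1155 CPM in neutrophil-like cells (n = 14), and the individual mice were widely spread, between 952 and 4955 CPM. Regulatory T-like cells were second at 803 ± 249 CPM (n = 9), monocyte-like cells came next at 420.2 ± 156 CPM (n = 16), and macrophage-like cells last at 156 ± 47.1 CPM (n = 16). Both steps, from neutrophil-like to regulatory T-like and on to monocyte-like cells, exceeded the larger standard deviation, and no later neighbouring pair did. Nfkbiz averaged 879 ± 253 CPM in neutrophil-like cells, 355 ± 94.7 CPM in the mast or basophil-like cells of 3 mice, 169 ± 45.2 CPM in monocyte-like cells and 51.3 ± 29.4 CPM in NK-like cells. Its first 2 steps were beyond the spread. The mast or basophil-like value rests on 3 mice, and Nfkbiz was higher in neutrophil-like cells in 2 of these 3.

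The other 3 genes had a different order, with CD4 T-like or regulatory T-like cells at the top. Tnfaip3 averaged 329 ± 203 CPM in CD4 T-like cells (n = 9), 268 ± 149 CPM in regulatory T-like cells (n = 9), 218 ± 106 CPM in neutrophil-like cells and 205 ± 107 CPM in CD8 T-like cells (n = 15), and these 4 did not differ beyond their spread. Tnfaip3 was low in macrophage-like cells, at 26.4 ± 12.2 CPM (n = 16), and in fibroblast-like cells, at 21.7 ± 16.4 CPM (n = 15). Within the mononuclear phagocytes, monocyte-like cells averaged 70.6 ± 31.8 CPM and exceeded the macrophage-like cells of the same mouse in 16 of 16 mice, the only neighbouring step beyond the spread for this gene. Among the 10 classes, Zfp36l1 was highest in regulatory T-like cells, at 883 ± 219.9 CPM (n = 9), a step beyond the spread above neutrophil-like cells at 531 ± 197 CPM. Summed over all cells, the smaller mature DC-like class, left out of this order, had 976 CPM against 870 CPM in regulatory T-like cells. Its 2 mice with enough cells had 487 and 930 CPM. The means of Zfp36l1 covered a 4.83-fold range, down to 183 ± 54.5 CPM in NK-like cells. Zfp36l2 had the narrowest range over these 10 classes, 3.92-fold, between 818 ± 358 CPM in CD4 T-like cells and 209 ± 46.7 CPM in fibroblast-like cells, although the smaller mature DC-like class was lower still. Its only neighbouring step beyond the spread was at the bottom, between mast or basophil-like and fibroblast-like cells.

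**Figure D1:**
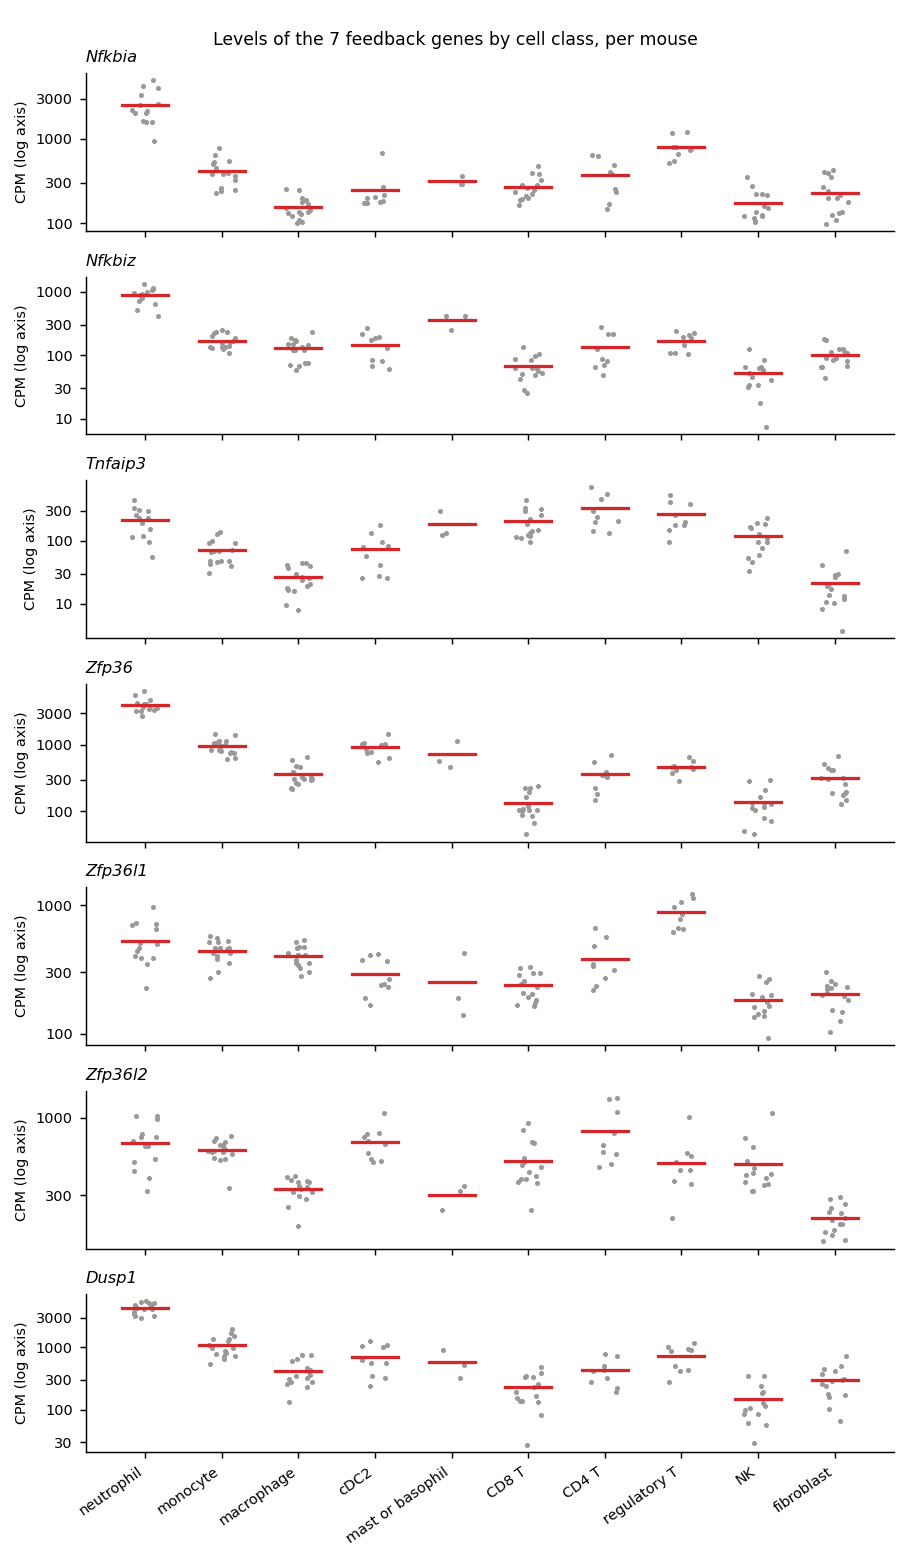
CPM of the 7 genes (log axis) by cell class, 1 grey point for each mouse that had 20 or more such cells, and a red line for the mean. Neutrophil-like cells are highest for Nfkbia, Nfkbiz, Zfp36 and Dusp1, CD4 T-like cells for Tnfaip3 and Zfp36l2, and regulatory T-like cells for Zfp36l1.

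The 3 decay factors of the Zfp36 family divided their messages differently between classes. Because 3′ tags count 1 end of each message, the summed UMIs of the 3 genes can be split into shares without regard to length, although capture may still differ between the genes. Zfp36 made up 76.3% ± 6.52 of this sum in neutrophil-like cells (n = 14), 47.3% ± 5.89 in monocyte-like cells (n = 16), 32.6% ± 6.02 in macrophage-like cells (n = 16) and 14.7% ± 4.79 in CD8 T-like cells (n = 15). Its lowest share in any neutrophil-like sample, 68.2%, was above its highest in any monocyte-like sample, 62.3%. Zfp36l2 held the largest share in 3 lymphocyte classes, with 60.0% ± 6.17 in NK-like (n = 14), 57.2% ± 8.32 in CD8 T-like and 52.3% ± 8.48 in CD4 T-like cells (n = 9). Regulatory T-like cells were led by Zfp36l1, at 48.2% ± 7.08 (n = 9). In macrophage-like cells the 3 genes were nearly level, with Zfp36l1 at 37.1% ± 5.03 and Zfp36l2 at 30.4% ± 4.94. The mature DC-like cells of 2 mice had Zfp36l1 at 54.5% and 58.6% and Zfp36l2 at 4.90% and 9.09%.

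Counting cells in place of UMIs gave a similar picture for the neutrophil-like class. After each cell was thinned to 1000 UMIs, 91.2% of neutrophil-like cells had a UMI of Dusp1, 89.2% of Zfp36, 65.7% of Nfkbia and 54.9% of Nfkbiz. Without thinning these shares were 96.5%, 96.3%, 79.6% and 77.8%. In monocyte-like cells, 52.4% had a UMI of Zfp36 and 48.7% of Dusp1 after thinning, against 91.1% and 85.1% without it. At the low end, Tnfaip3 was found in 2.28% of macrophage-like and 2.08% of fibroblast-like cells after thinning, and in 18.1% and 26.6% without it. No class is known to lack these genes, so the free RNA behind such shares was judged only from Lyz2 above.

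Classes too small for a mean over mice are given as sums over all their cells, with exact 95% Poisson intervals that cover counting error only. Mature DC-like cells (114 cells) had 856 CPM of Nfkbia (800.1 to 914) and 976 CPM of Zfp36l1 (916 to 1038), but 85.3 CPM of Zfp36l2 (68.4 to 105). The spread between mice is wider than these intervals: the pair of mice with enough of these cells had 412 and 656 CPM of Nfkbia, both below the interval of the sum. Zfp36l2 was thus lower in the mature DC-like sum than in cDC1-like cells (47 cells, 336 CPM, 300.3 to 375) and pDC-like cells (82 cells, 341 CPM, 301 to 384). In both of these, Nfkbia was low, at 107 CPM (87.3 to 130.2) in cDC1-like and 110.2 CPM (88.1 to 136) in pDC-like cells. B-like cells (99 cells) had 797 CPM of Zfp36l1 (717 to 884) and 31.0 CPM of Tnfaip3 (17.0 to 52.0).

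Within the monocyte-like class, the level of Nfkbia was highest in 1 of the 5 clusters, which held 607 of the 5553 cells. The cluster led by Slpi, Thbs1 and Mmp12 averaged 1320 ± 641 CPM of Nfkbia over 7 mice, between 715 and 2523 CPM. The cluster led by Chil3 averaged 218 ± 98.0 CPM (n = 15), the one led by Cxcl9 averaged 415 ± 104 CPM (n = 14), and the one led by Saa3 averaged 418 ± 191 CPM (n = 11). The lowest mouse in the Slpi cluster lay above every mouse in the Chil3 and Cxcl9 clusters and within the range of the Saa3 cluster, which reached 781 CPM. Nfkbiz was also highest there among the clusters seen in several mice, at 294 ± 122 CPM against 153 to 164 CPM, with wide spread. Dusp1 and Zfp36 did not follow: among the clusters seen in several mice both were highest in the Saa3 cluster, at 1527 ± 687 and 1287 ± 505 CPM, and Zfp36 averaged 779 ± 219.7 CPM in the Slpi cluster. Zfp36l1 was lower in the Cxcl9 and Saa3 clusters, at 326 ± 83.8 and 323 ± 118 CPM, than in the Chil3 cluster at 501 ± 90.5 CPM. The cluster led by Ace, Ear2 and Adgre4 had enough cells in 1 mouse only, where Dusp1 was at 2160.1 CPM and Zfp36 at 1819 CPM, above the Saa3 means. The clusters were made from the same cells, so no test is given.

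**Figure D2:**
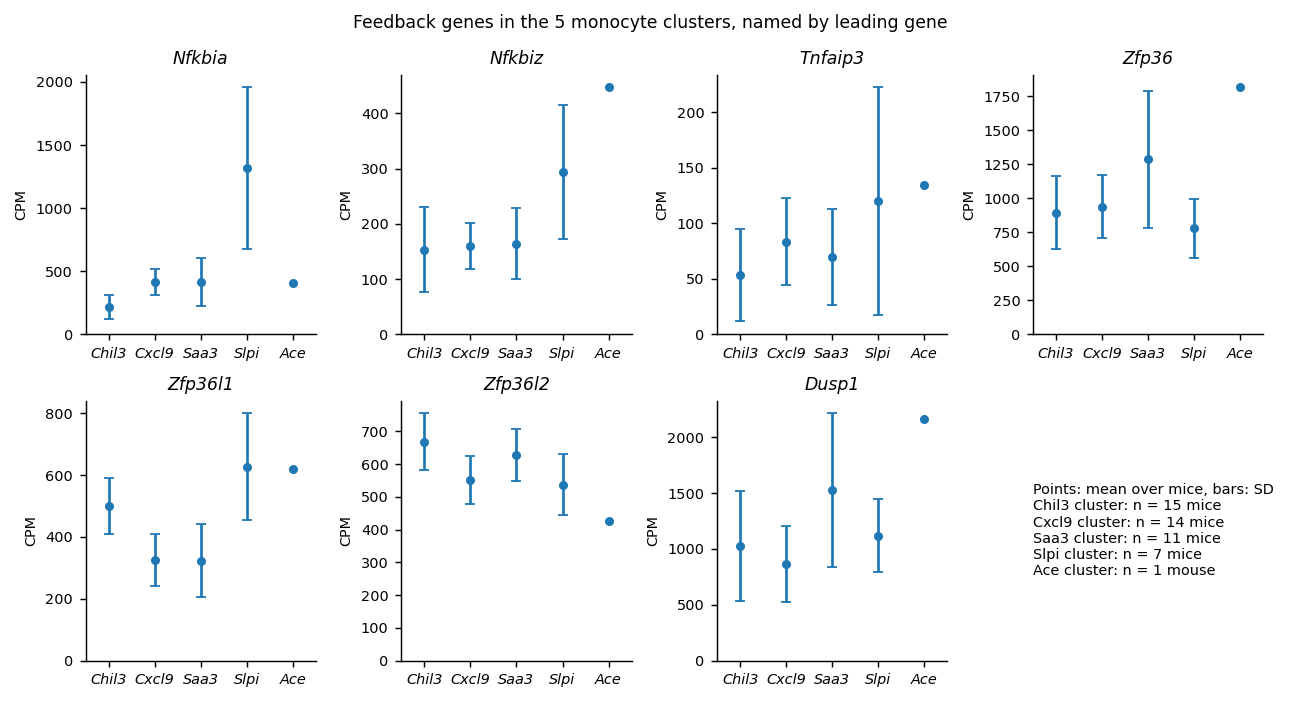
Mean CPM over mice of each gene in the 5 monocyte-like clusters, with SD bars, named by their leading gene (n = 15, 14, 11, 7 and 1 mice from Chil3 to Ace). Nfkbia stands at 1320 CPM in the Slpi cluster against 218 to 418 CPM in the other clusters, whereas Dusp1 and Zfp36 do not peak there.

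Across the 10 classes, the genes with the pattern most like each member were found by Pearson's r of log2(CPM + 1) class means among 11023 genes. The class means share their 2 pools and differ in depth, and r is given as a description. Zfp36 and Dusp1 were among each other's 3 nearest genes, with r of 0.968 over 10 classes. Dusp1 was also close to Riok3 (0.977) and Slc2a1 (0.953), and Zfp36 to Hnrnph2 (0.947) and Osbpl9 (0.944). Nfkbia was closest to Frat2 (0.97), Fam32a (0.969) and Csta2 (0.959), and Nfkbiz to Mboat7 (0.973), Ypel5 (0.962) and Med7 (0.931). Tnfaip3 was closest to Rab11fip4 (0.971), Fam107b (0.969) and 6530402F18Rik (0.966). For Zfp36l1 the nearest genes were Mtmr3 (0.937), Cradd (0.892) and Kat2b (0.884), and for Zfp36l2 they were Arhgap26 (0.985), Mbp (0.931) and Tox4 (0.929). Among the members, Nfkbiz was near Zfp36 (0.925) and Dusp1 (0.914), while Tnfaip3 and Zfp36 had r of 0.111.

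Genotype and antibody were compared in the class sums of each mouse, and no member changed past the threshold in any class. In 40 pairs of a class and a contrast over 9 classes, each of the 7 genes was tested, and 0 of 280 tests had an adjusted p under 0.05 in edgeR's quasi-likelihood test, against 0.0127% of the 322000 tests of all genes. The smallest adjusted p was 0.224. At an unadjusted p under 0.05 there were 25 member tests, 8.93%, beside 6.77% for all genes, and DESeq2 also called 0 of 280. A p that misses the threshold does not show that a level stayed the same, and the intervals of the log2 changes show how large a change could have gone unseen.

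In monocyte-like cells, Dusp1 and Zfp36 had their lowest means in LysM-Cre anti-PD-1 mice. Dusp1 was at 856 and 1353 CPM in the pool E6 mice and 652 and 529 CPM in the pool E5 mice of the LysM-Cre anti-PD-1 group. Floxed anti-PD-1 mice had 1711 and 1370.3 CPM in E6 and 992 and 715 CPM in E5. Within each pool, both LysM-Cre anti-PD-1 mice were below both floxed anti-PD-1 mice, but over both pools the groups overlapped. LysM-Cre isotype mice had 1242 and 1958 CPM in E6 and 966 and 727 CPM in E5, and floxed isotype mice 1519.5 and 1082 CPM in E6 and 792 and 802 CPM in E5. The means were 848 ± 363 CPM in LysM-Cre anti-PD-1, 1197 ± 435.5 CPM in floxed anti-PD-1, 1223.5 ± 533 CPM in LysM-Cre isotype and 1049 ± 341 CPM in floxed isotype mice (SD, n = 4 each). The log2 change of Dusp1 in LysM-Cre against floxed mice with anti-PD-1 was -0.55 (SE 0.18, 95% interval -0.93 to -0.16), with an adjusted p of 0.324 in edgeR, where 0.0105% of 9494 genes were called. Anti-PD-1 against isotype within LysM-Cre mice gave -0.52 (SE 0.18, adjusted p 0.888, edgeR), and the interaction of genotype and antibody -0.77 (SE 0.26, adjusted p 0.952, edgeR).

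Zfp36 was measured in the same samples. LysM-Cre anti-PD-1 mice had 775 and 1105 CPM in E6 and 639 and 614 CPM in E5, while the floxed anti-PD-1 mice had 1418 and 1078 CPM in E6 and 762 and 754 CPM in E5. LysM-Cre isotype mice had 1005.5 and 1456 CPM in E6 and 948 and 852 CPM in E5, and floxed isotype mice 1135 and 1161 CPM in E6 and 854 and 808 CPM in E5. The E5 mice of the LysM-Cre anti-PD-1 group were the lowest of all 16, and its E6 mice were below both floxed isotype mice of E6 and overlapped the E6 mice of the other 2 groups. The log2 change in LysM-Cre against floxed mice with anti-PD-1 was -0.38 (SE 0.13, adjusted p 0.352, edgeR), and that of anti-PD-1 against isotype within LysM-Cre mice was -0.45 (SE 0.13, adjusted p 0.859, edgeR). The summed level of 15 genes known to respond to tissue dissociation, such as Fos and Jun, moved with both genes: it was 6716 ± 1917 CPM in LysM-Cre anti-PD-1, 8635 ± 2756 CPM in floxed anti-PD-1, 9334 ± 2933 CPM in LysM-Cre isotype and 8312 ± 1787 CPM in floxed isotype mice. Its part in these differences was not tested.

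Nfkbia in monocyte-like cells averaged 461 ± 233 CPM in LysM-Cre anti-PD-1, 545 ± 82.8 CPM in floxed anti-PD-1, 314 ± 72.1 CPM in LysM-Cre isotype and 360.3 ± 112 CPM in floxed isotype mice (SD, n = 4 each). LysM-Cre anti-PD-1 mice had 381 and 788 CPM in E6 and 435 and 239.7 CPM in E5, while the floxed anti-PD-1 mice had 549 and 451 CPM in E6 and 528 and 652 CPM in E5. LysM-Cre isotype mice had 244 and 389 CPM in E6 and 262 and 363 CPM in E5, and floxed isotype mice 497 and 329 CPM in E6 and 385 and 229.7 CPM in E5. 4 of the 8 anti-PD-1 mice were above every isotype mouse, and the groups overlapped. Averaged over genotypes, anti-PD-1 mice had 503 ± 168 CPM and isotype mice 337 ± 90.4 CPM (SD, n = 8 each), a log2 change of 0.60 (SE 0.20, 95% interval 0.17 to 1.03) with an adjusted p of 0.224 in edgeR, where 0.0527% of genes were called. The Nfkbia-rich Slpi cluster made up 12.8% ± 3.35 of monocyte-like cells in LysM-Cre anti-PD-1 mice and 25.2% ± 19.2 in floxed anti-PD-1 mice, against 5.88% ± 3.79 in LysM-Cre isotype and 4.24% ± 3.39 in floxed isotype mice. Its part in the level of Nfkbia was not tested. In such sums, more cells with the message and more message per cell cannot be told apart. Zfp36l2, in contrast, averaged 541 ± 88.0 CPM with anti-PD-1 and 668 ± 73.0 CPM with isotype (n = 8 each), a log2 change of -0.27 (SE 0.11) with an adjusted p of 0.304 in edgeR. Nfkbiz gave log2 changes of 0.31 for anti-PD-1 against isotype in floxed mice and -0.31 for LysM-Cre against floxed with anti-PD-1 (adjusted p 0.359 and 0.478, edgeR).

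**Figure D3:**
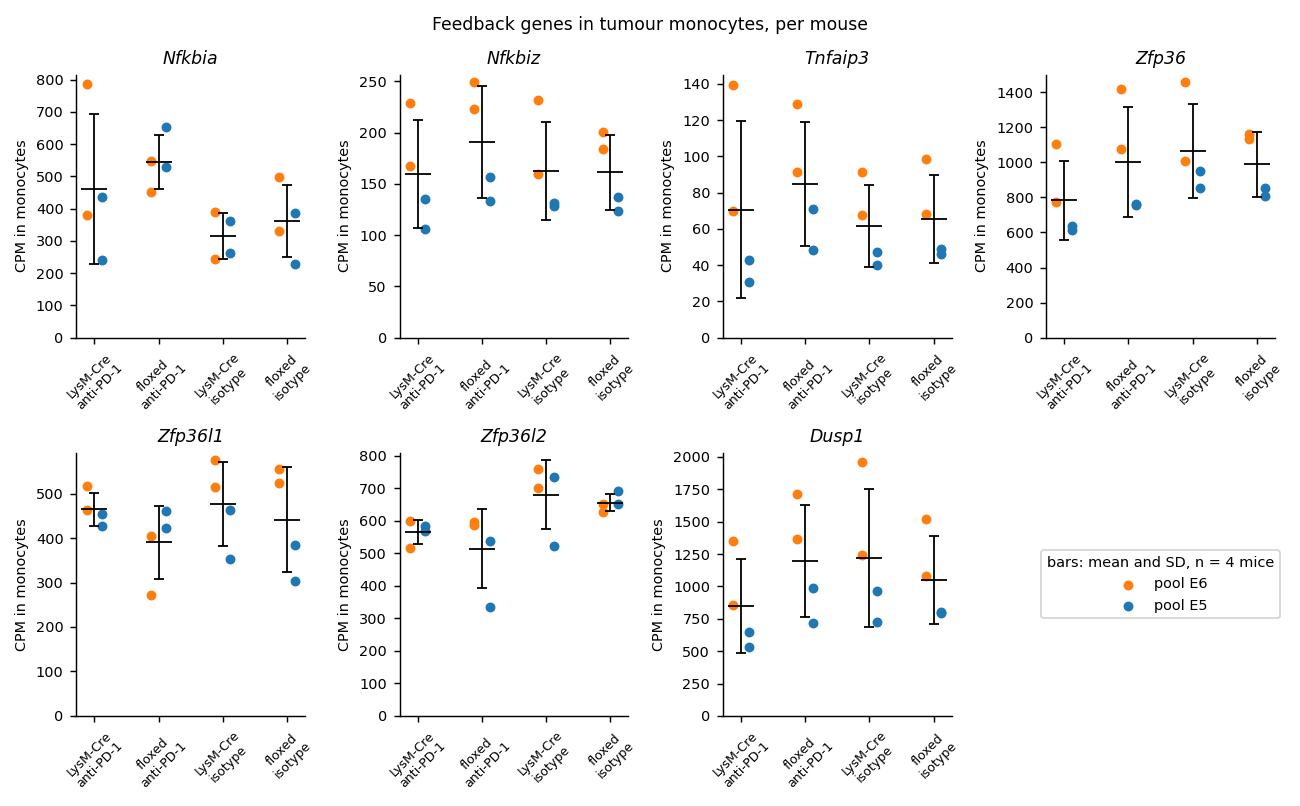
CPM of each gene in the monocyte-like cells of every mouse by condition, with orange points for pool E6, blue points for pool E5 and black bars for the mean and SD of 4 mice. Dusp1 averages 848 CPM in the LysM-Cre anti-PD-1 condition against 1049 to 1224 CPM in the other conditions, and the E6 points stand above the E5 points for Nfkbiz, Tnfaip3, Zfp36 and Dusp1.

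In macrophage-like cells, the clearest separation was that of Zfp36l2. LysM-Cre anti-PD-1 mice had 368 and 399 CPM in E6 and 374 and 381 CPM in E5, whereas floxed anti-PD-1 mice had 322 and 185 CPM in E6 and 294 and 281 CPM in E5. The 2 groups did not overlap. The mean was 381 ± 13.5 CPM with LysM-Cre and 271 ± 59.2 CPM without it (SD, n = 4 each), a log2 change of 0.52 (SE 0.17, 95% interval 0.16 to 0.88) with an adjusted p of 0.297 in edgeR. At an unadjusted p under 0.05, it was the only member among the 7 in this contrast, where 12.1% of all 9569 genes passed that limit and 0% passed the adjusted one. The make-up of the class differed between the groups: the cluster led by Ms4a7 held 31.9% ± 22.6 of macrophage-like cells with LysM-Cre and 10.9% ± 9.84 without it, and the cluster led by Fcrls and Mki67 held 20.7% ± 7.64 with LysM-Cre and 34.2% ± 16.5 without it (SD, n = 4 each). Their part in the difference of Zfp36l2 was not tested. With isotype, Zfp36l2 averaged 324 ± 63.0 CPM in LysM-Cre and 342 ± 20.4 CPM in floxed mice (SD, n = 4 each). The interaction of genotype and antibody for Zfp36l2 was 0.54 (adjusted p 0.794, edgeR). The log2 changes of the 7 genes between LysM-Cre and floxed mice with isotype ranged from -0.15 to 0.36.

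Neutrophil-like cells, the class with the highest levels, could be compared in 2 contrasts. Tnfaip3 had 222 and 234 CPM in E6 and 332 and 299 CPM in E5 in LysM-Cre anti-PD-1 mice, against 228 and 117 CPM in E6 and 55.1 and 95.9 CPM in E5 in LysM-Cre isotype mice. The isotype mouse at 228 CPM lay among the anti-PD-1 mice, the other isotype mice lay below them, and the lowest value rested on 7 UMIs. The log2 change of Tnfaip3 was 1.16 (SE 0.32, 95% interval 0.49 to 1.84), with an adjusted p of 0.889 in edgeR and 0% of 2524 genes called. It was the largest change in any member test of genotype or antibody. Nfkbia in the same mice averaged 2681 ± 918 CPM with anti-PD-1 and 1723.5 ± 570.1 CPM with isotype, a log2 change of 0.76 (SE 0.32, adjusted p 0.998, edgeR). Leaving out mouse 2 of the anti-PD-1 group gave 0.35. Between LysM-Cre isotype and floxed isotype mice, the 7 log2 changes in neutrophil-like cells ranged from -0.63 to 0.46.

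In lymphocytes and fibroblast-like cells, the members' changes were also short of the threshold. In CD8 T-like cells, Dusp1 averaged 146 ± 136 CPM in LysM-Cre anti-PD-1 and 261 ± 117 CPM in LysM-Cre isotype mice (n = 4 each, log2 change -0.81, adjusted p 0.561, edgeR). Leaving out mouse 4 of the anti-PD-1 group gave -1.41, and leaving out its mouse 3 gave -0.52. In regulatory T-like cells, Zfp36l2 averaged 619 ± 282 CPM in LysM-Cre isotype and 389.9 ± 145 CPM in floxed isotype mice (n = 4 each, log2 change 0.61, adjusted p 0.766, edgeR). In NK-like cells, Nfkbiz averaged 39.7 ± 21.9 CPM in LysM-Cre and 62.9 ± 33.0 CPM in floxed mice (n = 7 each, log2 change -0.69, adjusted p 0.841, edgeR), and the lowest of these values rested on 3 UMIs. In fibroblast-like cells, Zfp36l2 averaged 247 ± 25.4 CPM with LysM-Cre and anti-PD-1 (n = 4) against 173 ± 29.6 CPM with floxed alleles and anti-PD-1 (n = 3), and the groups did not overlap (log2 change 0.46, adjusted p 0.857, edgeR). The genes and directions differed between classes, as the plot of changes by class shows.

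**Figure D4:**
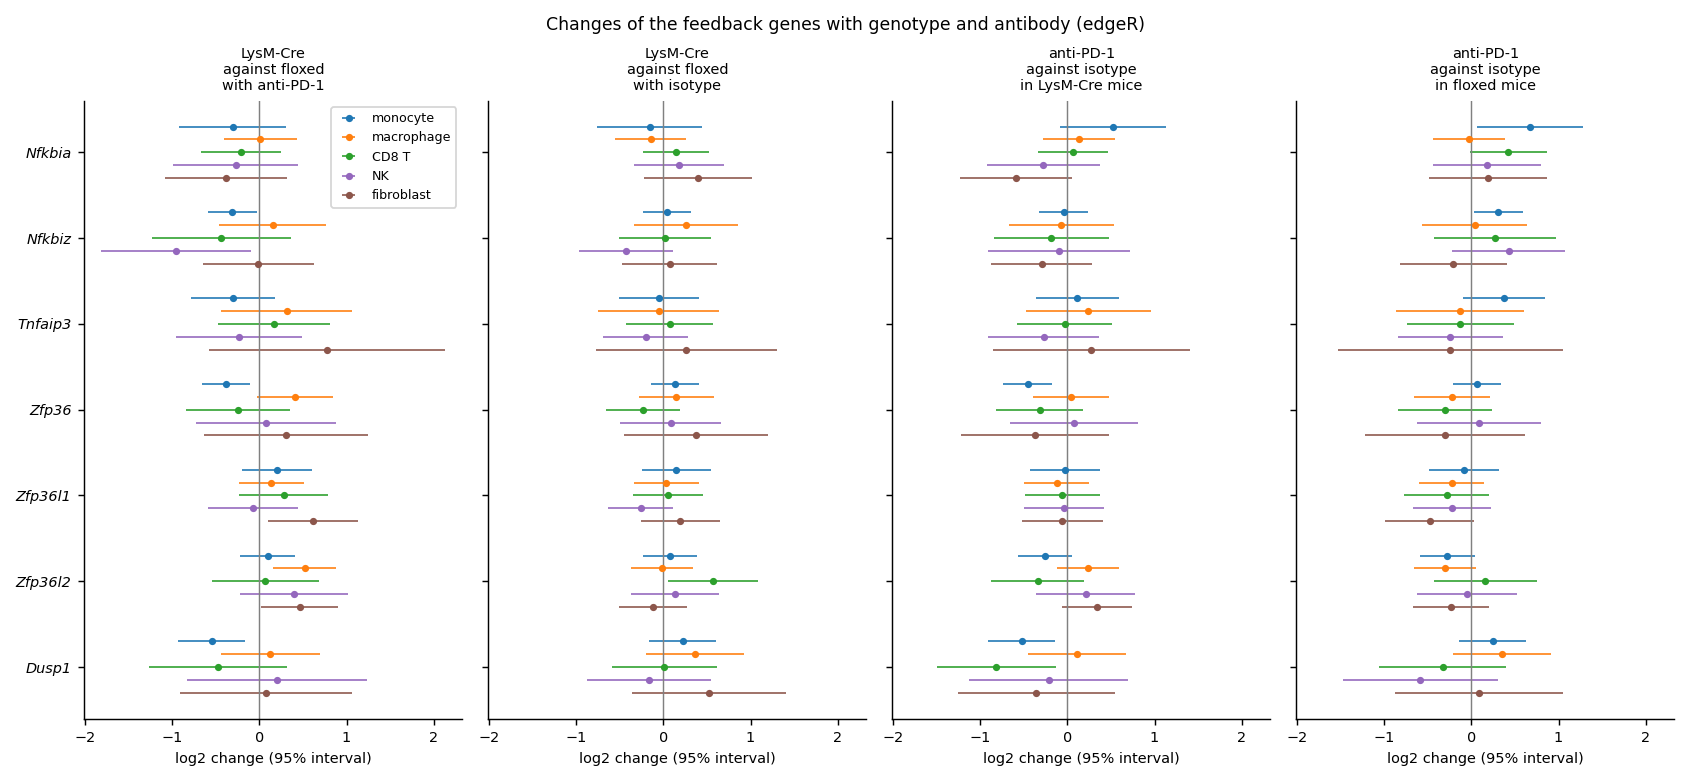
Log2 change with its 95% interval (edgeR) of each gene in 5 classes, for LysM-Cre against floxed with anti-PD-1 and with isotype and for anti-PD-1 against isotype in LysM-Cre and in floxed mice. Several intervals of monocyte-like cells exclude 0, among them Dusp1 at -0.55 in the first panel, but no change has an adjusted p under 0.05.

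Other genes of the same pathways gave the same count. Over the 40 pairs, 0 of 346 tests of 9 NF-kappaB subunits and IkB genes, 0 of 983 tests of 28 NF-kappaB kinases, adaptors and ubiquitin editors, and 0 of 874 tests of 24 mRNA-decay factors had an adjusted p under 0.05 in edgeR. The same held for 469 tests of 21 messages bound by the Zfp36 family, 278 tests of 10 other dual-specificity phosphatases and 382 tests of 12 glucocorticoid target genes, which include Tsc22d3 and Fkbp5. Over all genes, 0.0127% of 322000 tests were called, so a count of 0 in lists of this size says little about them. Of 598 tests of the 15 dissociation genes, 0 were higher and 6 were lower, beside 22 and 19 of the 322000 tests of all genes. The 6 include Hspa1b in CD8 T-like cells in overlapping contrasts. All 6 were the heat shock genes Hspa1a and Hspa1b in lymphocytes of LysM-Cre mice, such as Hspa1b in regulatory T-like cells at 6.32 ± 4.95 CPM in LysM-Cre isotype and 66.9 ± 21.1 CPM in floxed isotype mice (n = 4 each, log2 change -3.94, adjusted p 7.58e-05, edgeR).

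Dusp1, Zfp36, Tnfaip3 and Nfkbiz differed between the 2 pools. In the model that also held the conditions, 13 of 35 member tests were higher in pool E6 than in pool E5 with an adjusted p under 0.05 in edgeR and 0 were lower, which is 37.1% of the member tests against 0.407% of all genes higher and 0.509% called in either direction. 34 of the 35 log2 changes were positive. This comparison was made after the values had been seen, and it covers the 5 classes with at least 3 mice in every condition. The called members were 4 of 7 in monocyte-like cells (0.411% of genes higher), 2 in macrophage-like cells (0.24%), 3 in CD8 T-like cells (0.76%), 4 in NK-like cells (0.89%) and 0 in fibroblast-like cells (0.00978%). The labels give the pools as mixtures of 8 tagged samples and name no other difference between them. No pool was repeated, so these p-values measure the spread between mice within a pool and not between pools. The 35 tests reuse the same mice across the 5 classes and are not independent.

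Dusp1 and Zfp36 were called in 4 classes, Tnfaip3 in 3 and Nfkbiz in 2. In monocyte-like cells, Dusp1 ran from 856 to 1958 CPM in the 8 E6 mice with a median of 1362, and from 529 to 992 CPM in the 8 E5 mice with a median of 759.9. 7 of the 8 E6 mice were above every E5 mouse, and the E6 mean was higher in 4 of 4 conditions. The log2 change was 0.81 (SE 0.13, adjusted p 0.00403, edgeR). For Nfkbiz, monocyte-like cells gave 159 to 249.6 CPM in E6 mice with a median of 212, and 106 to 157 CPM in E5 mice with a median of 133, so that the pools did not overlap (log2 change 0.60, SE 0.09, adjusted p 0.00403, edgeR). Tnfaip3 averaged 94.3 ± 27.4 CPM in E6 and 46.9 ± 11.5 CPM in E5 mice (n = 8 each), a log2 change of 1.01 (SE 0.16, adjusted p 0.00403, edgeR). Zfp36 averaged 1142 ± 219 CPM in E6 and 779 ± 112 CPM in E5 mice, a log2 change of 0.52 (SE 0.09, adjusted p 0.0108, edgeR).

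Dusp1, Zfp36, Tnfaip3 and Nfkbiz were called in other classes too. For Nfkbiz this was in NK-like cells, with a log2 change of 1.02 (SE 0.22, adjusted p 0.0255, edgeR). Dusp1 ran from 355 to 761 CPM in macrophage-like cells of E6 mice and from 131 to 349.5 CPM in those of E5 mice, with no overlap and a log2 change of 1.08 (SE 0.19, adjusted p 0.0201, edgeR). In NK-like cells the log2 change of Dusp1 was 1.50 (SE 0.30), at 203 ± 99.6 CPM in 8 E6 mice and 73.8 ± 32.6 CPM in 6 E5 mice (adjusted p 0.0141, edgeR). Tnfaip3 in NK-like cells ran from 95.8 to 234 CPM in E6 mice with a median of 165, while E5 mice started at 33.7 CPM with a median of 57.0 and again did not overlap, and its log2 change was 1.36 (SE 0.20, adjusted p 0.0014, edgeR). In CD8 T-like cells, the log2 changes were 1.21 for Dusp1, 1.17 for Tnfaip3 and 0.99 for Zfp36 (adjusted p 0.00999, 0.00211 and 0.00299, edgeR). In neutrophil-like cells, which had too few mice for this fit, Dusp1 ran from 4067 to 5448 CPM in 7 E6 mice and from 2935 to 4354 CPM in 7 E5 mice.

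Nfkbia, Zfp36l1 and Zfp36l2 were not called in any of the 5 classes. By adjusted p, Nfkbia came nearest, with a log2 change of 0.58 in CD8 T-like cells (324 ± 91.1 CPM in 8 E6 and 211 ± 34.6 CPM in 7 E5 mice, adjusted p 0.0527, edgeR). The log2 change of Nfkbia was 1.09 in fibroblast-like (95% interval 0.61 to 1.56), 0.61 in macrophage-like (0.32 to 0.91) and 0.63 in NK-like cells (0.19 to 1.06). In monocyte-like cells it was 0.22, and there the 95% interval, -0.21 to 0.65, included 0. Zfp36l2 in macrophage-like cells, at 327 ± 76.0 CPM in E6 and 332 ± 35.3 CPM in E5 mice, had a log2 change of -0.01 (95% interval -0.27 to 0.24), the single negative value among the 35. The difference between members was not tested.

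**Figure D5:**
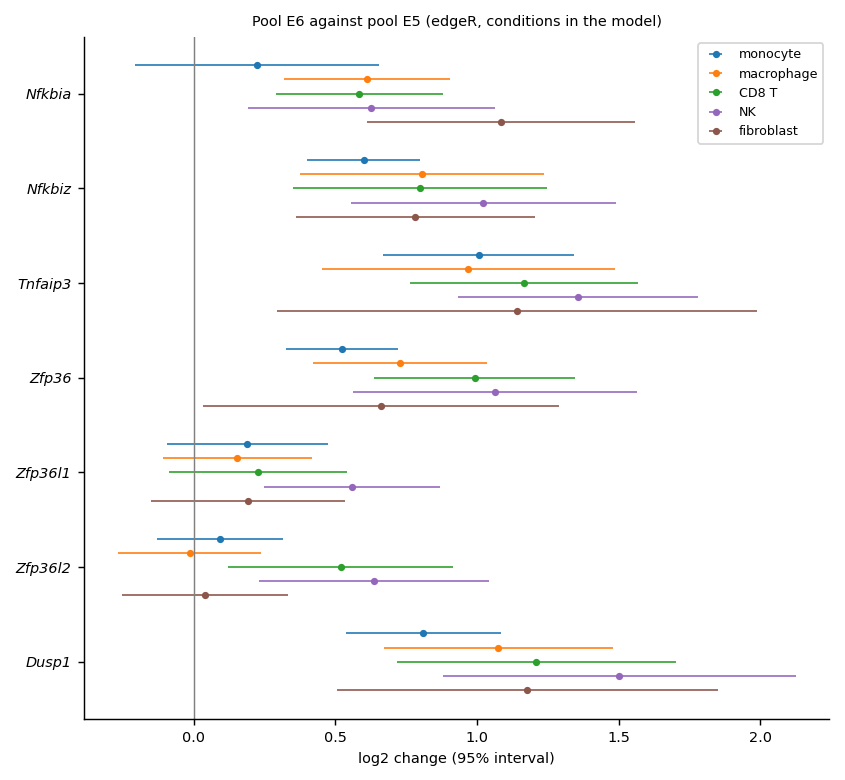
Log2 change with its 95% interval of pool E6 against pool E5 (edgeR, conditions in the model) for each gene in 5 classes. 34 of 35 points lie right of 0, and Dusp1 and Tnfaip3 reach 1.50 and 1.36 in NK-like cells while Zfp36l1 and Zfp36l2 stay at or below 0.64.

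Genes known to respond to tissue dissociation moved with the pools in the same classes. Of the 15 on the list, which include the mRNA-decay gene Btg2, 7 were higher in E6 in monocyte-like cells, 6 in macrophage-like, 7 in CD8 T-like, 9 in NK-like and 0 in fibroblast-like cells, and 0 were lower in any of them (edgeR, adjusted p under 0.05). Fos, an immediate-early transcription factor gene, had log2 changes of 0.86 in monocyte-like, 1.02 in macrophage-like, 1.54 in CD8 T-like and 1.30 in NK-like cells (adjusted p 0.000432, 0.01, 0.00016 and 0.00556, edgeR). The summed level of the list was 10064 ± 1856 CPM in E6 and 6434 ± 1009 CPM in E5 mice in monocyte-like cells (n = 8 each), and 5603 ± 1158 CPM in 8 E6 and 3047 ± 344 CPM in 6 E5 mice in NK-like cells. In neutrophil-like cells the sums were 23321 ± 1450 CPM in E6 and 21780 ± 1989 CPM in E5 mice (n = 7 each). Of the NF-kappaB subunits and IkB genes and of the kinases, adaptors and ubiquitin editors, 0 were called in any of the 5 classes. The medians of log2 changes over the 7 members were 0.52 in monocyte-like and 1.02 in NK-like cells, beside -0.01 and 4e-04 over all genes tested. Over the glucocorticoid target genes, they were 0.42 in monocyte-like, 0.43 in macrophage-like, 0.79 in CD8 T-like, 0.61 in NK-like and 0.78 in fibroblast-like cells. Of these genes, Tsc22d3 was called higher in E6 in CD8 T-like and NK-like cells (log2 changes 1.30 and 1.42). Mt1 was called in CD8 T-like cells (1.21). Dusp2, another dual-specificity phosphatase gene, was called in CD8 T-like and NK-like cells (0.84 and 0.86). Summed neutrophil markers, which could reach other cells as free RNA, were 290 ± 444 CPM in E6 and 71.5 ± 14.6 CPM in E5 mice in NK-like cells, and in CD8 T-like cells 210 ± 97.6 CPM in E6 and 134 ± 68.4 CPM in E5 mice. Il1b and Cxcl2, cytokine genes bound by the Zfp36 family, were also higher in E6 in both classes, with log2 changes of 1.89 and 4.19 in NK-like and 1.56 and 1.87 in CD8 T-like cells (adjusted p 0.0143, 6e-04, 0.00784 and 0.0402, edgeR). Cxcl2 was higher in E6 in macrophage-like cells too, with a log2 change of 1.69 (adjusted p 0.0082, edgeR). The part of these in the member changes was not tested.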

How the data were processed

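The deposited matrices hold UMI counts per gene, antibody and hashtag, made by the authors with Cell Ranger 6.1.2 per the file headers, whereas the submitters' processing notes name version 3.0.1 and mm10. Libraries were 10x 3′ libraries per the labels' protocols. Hashtag conditions came from the authors' deposited antibody table, in which 2 of the hashtags share 1 printed tag sequence. Its genotype names, KO and wildtype, were read here as LysM-Cre and floxed.

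Barcodes with at least 500 UMIs, 200 genes and at most 10% mitochondrial UMIs were kept. HTODemux (Seurat 5.3.0, quantile 0.99) assigned 8831 barcodes of pool E6 and 8408 of pool E5 to 1 hashtag and removed 4471 and 3836 doublets and 1213 and 1670 negatives. Scrublet's automatic threshold marked 0.283% and 0.285% of cells and so did not work, and doublets within a hashtag remain. The pools shared 789 kept barcode sequences. Clusters came from the Leiden method (leidenalg 0.10.2 within scanpy 1.11.5) at resolution 1, on a graph of 15 neighbours over 30 principal components of the 2000 most variable genes, and the rule that named clusters from markers was set after the files had been seen.

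Counts were summed per mouse and class (at least 20 cells, 3 mice per condition) and fitted with edgeR 4.0.16 (filterByExpr, TMM, quasi-likelihood test, condition and pool as terms, Benjamini-Hochberg adjustment over all genes of the class), which was first tested on simulated data. DESeq2 1.42.0 was an alternative. The labels do not say whether hashtagged samples are separate animals, and p-values measure the spread between these samples. The named genes are the 7 members, genes of the lists past the threshold, at most 8 per list, and the 3 nearest genes of each member among those with at least 10 CPM in 1 class. The members and lists were chosen with earlier results of these data known. Searches for 2 of the promoter elements, the cyclic AMP response element and AP-1, and the comparison of pools were added after the data had been seen. Proteins were not analysed here.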

Additional observations from a re-analysis of the deposited data

Results flagged for a closer look

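In 9 of 168 groups of 4 mice, 1 mouse stood apart from the other 3 by a gap that took up most of the group's range, and chance gives about 1 such group in 20. Some mice stood apart for more than 1 gene or class. In each condition, mice 3 and 4 belong to pool E6 and mice 1 and 2 to pool E5.

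In T and NK cells, LysM-Cre anti-PD-1 mouse 4 stood apart for a pair of genes in CD8 T-like cells. It had 455 CPM of Tnfaip3 against 96.2 to 133 CPM in the other mice, and 829 CPM of Zfp36l2 against 364 to 404 CPM, from 64 cells. Zfp36l2 in NK-like cells was 737 CPM in LysM-Cre isotype mouse 3 against 349.9 to 409.8 CPM. Dusp1 in NK-like cells was 339.8 CPM in floxed isotype mouse 3 against 84.2 to 112 CPM. Zfp36 in regulatory T-like cells was 573 CPM in LysM-Cre isotype mouse 1 against 460.4 to 476 CPM.

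In macrophage-like cells, Nfkbiz was 58.1 CPM in LysM-Cre anti-PD-1 mouse 1 against 146 to 151 CPM, and Zfp36 was 604 CPM in LysM-Cre isotype mouse 3 against 296 to 325 CPM. In fibroblast-like cells, Nfkbiz was 67.0 CPM in LysM-Cre isotype mouse 1 against 116 to 123 CPM, and Tnfaip3 was 41.7 CPM in floxed isotype mouse 3 against 8.34 to 13.1 CPM.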

How the results depend on the processing

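The count of 0 members called held in the 10 alternatives other than the one without a filter on low counts, and leaving out each of the 16 mice in turn gave 0 in every contrast. Without the filter, edgeR called 15 of 280 member tests (5.36%, against 0.949% of 695625 tests of all genes). By contrast these were 1 for LysM-Cre against floxed with isotype, 3 with anti-PD-1 and 2 averaged over antibodies, 1 for anti-PD-1 against isotype in floxed mice, 4 in LysM-Cre mice and 3 averaged over genotypes, and 1 for the interaction. The cause was not tested. DESeq2 called 696 of all 322000 tests where edgeR called 41, and the rule on the largest hashtag gave 189 of 338037. Among the 10 classes with levels per mouse, without thinning, the class with the highest share of cells with a UMI was kept for 4 of the 7 genes. The 25 member changes at an unadjusted p under 0.05 were recomputed under the 11 alternatives and 16 leave-outs, and of these 675 values 663 kept their direction and their side of the threshold and 12 passed it. The other member changes were not followed for direction. Between the pools, RLE size factors gave 13 called members and DESeq2 gave 19, and leaving out mice was not run there. No paired analysis was possible because each mouse had 1 condition and the replicate numbers only name mice. Only 9 classes had enough mice for any contrast.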
